A study of Mus musculus with 32 samples.

Results

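The genes Clu, Ly6a, Ly6e, Anxa1, Anxa2 and Il1rn of the fetal-like and revival programme of the intestinal epithelium were followed through sorted mouse crypt cells. They were chosen by name, 6 of the 50686 genes in the files, and all 6 were found. PolyA RNA came from cells with high Lgr5-eGFP, called stem cells here, and from cells with low Lgr5-eGFP, called progenitors. Both were sorted as EpCAM-positive cells with little or no CD24, and cells with CD45, CD31, Ter119 or the dead-cell dye 7AAD were left out. The mice, all of the C57BL6 strain, carried Villin-CreER and Lgr5-GFP-IRES-CreER, and the Cpt1a-deficient ones also carried Cpt1afl/fl, so the wild-type controls have the same drivers without the floxed gene. Villin-CreER acts in the whole intestinal epithelium, and the eGFP reporter that defines both sorts stands in the Lgr5 locus. The mice ate a high-fat diet (HF) or a high fat control diet (HFC), and neither the time on the diet nor the age is given in the labels. Population, genotype and diet make 8 groups of 4 libraries each, 32 together, with 2 female and 2 male samples per group by label.

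After damage to the gut, crypts lose many of their Lgr5-positive cells, and surviving cells can switch on genes typical of the fetal epithelium before new stem cells appear. Clu marks the revival stem cells described in irradiated crypts, and Ly6a, which encodes Sca-1, is the surface protein most used to sort fetal-like epithelium. The programme is tied to the YAP and TAZ coactivators, which act through TEAD factors, and several of its genes also answer to interferon or to AP-1 factors. In the resting crypt these genes are expected to be low in most cells, but single members have other roles in the epithelium.

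The 32 libraries held 3307711 to 7337425 estimated counts (median 5655066.5). The labels do not say whether samples of 1 group come from separate mice, so the p-values measure the spread between libraries. The columns of the tables give each library's group but not its replicate number, and libraries are called a to d in column order. Cpt1a lay at 119 to 347 CPM (counts scaled to the library total with TMM factors) in wild-type libraries and at 18.8 to 30.6 CPM in deficient ones. The gate gene Lgr5 lay at 282 to 515 CPM in stem cells and at 11.9 to 85.7 CPM in progenitors, without overlap. Epcam was at 1900 CPM or more in each library, while Ptprc, which encodes CD45, reached at most 0.614 CPM and Pecam1, which encodes CD31, at most 0.979 CPM. Cd24a, which encodes CD24, lay at 198 to 344 CPM (median 273), so its RNA was present in each library despite the gate. Of the 19 markers of crypt base stem cells, 19 were higher in stem cells than in progenitors, against 32.5% of all tested genes. Lgr5, whose direction the gate fixed, is among them.

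Only for Anxa1, Anxa2 and Il1rn did the RefSeq promoter table (GRCm38.p6, 250 bases before to 50 after each start) hold an entry, 3 of the 6 genes. They are shown because Anxa2 and Il1rn, which were high in opposite populations, held the same AP-1 letters. Capitals mark the match, and each promoter runs 5′ to 3′ along its gene.
Anxa2 (chr9:69453433-69453732, plus strand): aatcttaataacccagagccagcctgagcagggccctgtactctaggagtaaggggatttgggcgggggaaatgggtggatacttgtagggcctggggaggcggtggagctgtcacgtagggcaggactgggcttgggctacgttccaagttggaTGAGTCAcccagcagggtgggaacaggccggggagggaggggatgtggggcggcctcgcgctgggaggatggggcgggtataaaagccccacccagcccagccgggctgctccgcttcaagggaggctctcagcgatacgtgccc
Il1rn, the first of 3 starts (chr2:24336610-24336909, plus strand): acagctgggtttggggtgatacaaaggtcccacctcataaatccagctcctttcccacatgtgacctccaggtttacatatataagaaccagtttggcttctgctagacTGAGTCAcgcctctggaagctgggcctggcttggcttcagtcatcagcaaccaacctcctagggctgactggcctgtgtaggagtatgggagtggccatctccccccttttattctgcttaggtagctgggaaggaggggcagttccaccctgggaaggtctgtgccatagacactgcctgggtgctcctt
Anxa1 (chr19:20390622-20390921, minus strand): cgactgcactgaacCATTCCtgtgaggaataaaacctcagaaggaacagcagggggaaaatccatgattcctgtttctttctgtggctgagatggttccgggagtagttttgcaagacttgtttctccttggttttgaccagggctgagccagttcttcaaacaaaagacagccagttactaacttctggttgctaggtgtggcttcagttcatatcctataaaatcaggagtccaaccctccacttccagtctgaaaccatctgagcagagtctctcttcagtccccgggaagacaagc

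Both strands were searched for TGANTCA (AP-1), GGAATG (TEAD core) and the core of the interferon-stimulated response element (2 runs of GAAA with 2 bases between them). No window held more than 1 of these matches. The AP-1 letters began at -95 from the start in Anxa2 and at -141 in Il1rn, and 7.81% of the 32851 promoters in the table held them. The TEAD core lay at -236 on the opposite strand in Anxa1, and at -24 in the third start of Il1rn, against 14.7% of all promoters. No interferon element was found in the 5 windows of these 3 genes, against 3.44% of all promoters. A match describes letters, not a bound site.

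The 6 genes did not share one level or one direction. On the TPM scale, which corrects for transcript length and depth, Ly6e was the most abundant in both populations, with 753 ± 183 TPM in stem cells and 745 ± 111 TPM in progenitors (SD, n = 16 each). Anxa2 followed with 96.4 ± 22.1 and 382 ± 87.7 TPM. Clu stood at 27.3 ± 12.9 TPM in stem cells and 2.68 ± 1.81 TPM in progenitors. The other three were scarce: Il1rn had 2.5 ± 1.32 and 0.833 ± 0.684 TPM, Ly6a 1.73 ± 1.46 and 3.97 ± 2.57 TPM, and Anxa1 0.852 ± 0.608 and 0.652 ± 0.769 TPM.

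**Figure D1:**
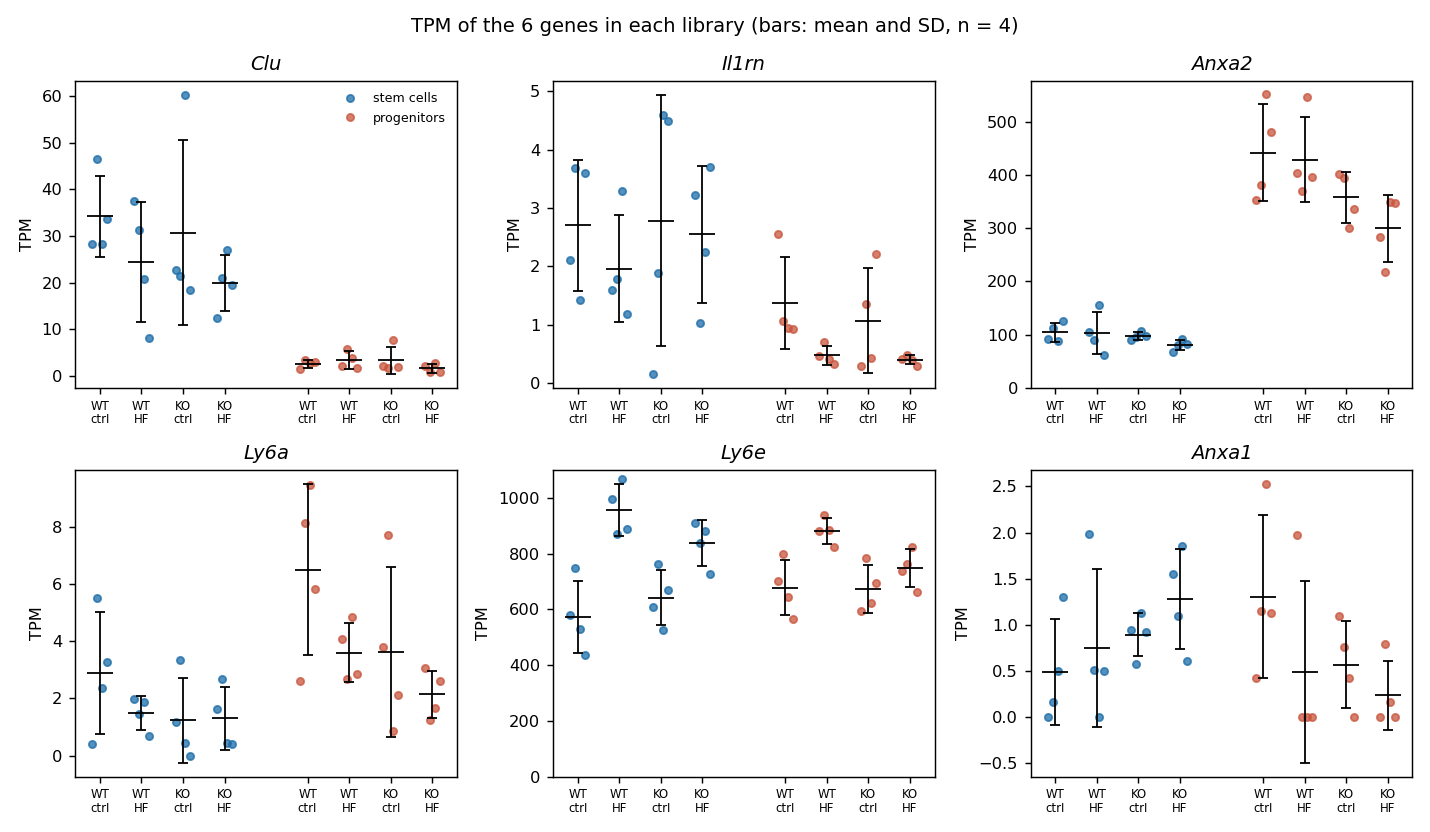
TPM (linear axes, each with its own scale) of the 6 genes in each library, by population, genotype (WT, wild type; KO, Cpt1a-deficient) and diet (ctrl, control; HF, high-fat); points are libraries, and the black marks are the mean and SD of 4. Clu is high in stem cells (8.06 to 60.3 TPM, against 0.69 to 7.59 TPM in progenitors), Anxa2 is high in progenitors, and Ly6e is high in all groups.

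Stem cells were compared with progenitors over the 4 conditions, to ask which of the genes go with the sorted stem cell state. Clu and Il1rn were higher in stem cells, while Anxa2, Ly6a and Ly6e were lower, so that 5 of the 5 genes that could be tested differed, 2 up and 3 down (edgeR quasi-likelihood test, Benjamini-Hochberg adjusted p under 0.05). This count has a high background, since 63.5% of the 13088 tested genes differed between the populations, 4259 (32.5%) higher and 4056 (31%) lower in stem cells. The split was 6472 higher and 2711 lower without scaling beyond library totals, and 7617 and 1981 on log2(TPM + 1) with limma. Anxa1 did not pass the filter on low counts.

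Clu (ENSMUSG00000022037; GRCm38 chromosome 14, 65968483 to 65981547, plus strand) encodes clusterin, a secreted chaperone that also carries lipids. Wild-type stem cells held 29.6, 47.2, 29.1 and 34.7 CPM on the control diet and 41.1, 30.8, 21.1 and 7.93 CPM on the high-fat diet. Deficient stem cells held 25.4, 23.0, 61.5 and 17.9 CPM on the control diet and 15.1, 20.7, 27.9 and 21.3 CPM on the high-fat diet. One deficient control library thus stood at more than all others, and 1 wild-type high-fat library below all others.

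Progenitors held 0.689 to 9.06 CPM of Clu (median 2.26). Within each condition, no progenitor library reached a stem cell library, although the highest progenitor value, from deficient mice on the control diet, passed the lowest stem cell value of wild-type mice on the high-fat diet. Over the 4 conditions Clu was 10.1-fold higher in stem cells (log2 fold change 3.34 ± 0.28 SE, edgeR adjusted p = 5.44e-11). The 4 within-condition values ran from 3.04 ± 0.54 in wild type on the high-fat diet to 3.62 ± 0.56 in wild type on the control diet, and all 4 passed. In deficient cells on the control diet, 3.06 ± 0.52, the value was 3.92 without progenitor library c, the high one, and 2.53 without stem cell library c. The libraries did not overlap within conditions, as for 17.6%, 15.1%, 15.4% and 12.4% of genes (wild type on the control and the high-fat diet, then deficient cells on each). The shares of genes called in either direction were 41.4%, 37.3%, 36.8% and 31.4% in the same order.

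Il1rn (ENSMUSG00000026981; chromosome 2, 24336853 to 24351494, plus strand) encodes the antagonist that blocks the interleukin-1 receptor. Its counts were low, with 1 to 24 in stem cell libraries (median 13) and 1 to 8 in progenitor libraries (median 4). The lowest stem cell library, from deficient mice on the control diet, had 1 count, while the other three of that group had 14, 21 and 18. The gene was 2.92-fold higher in stem cells over the 4 conditions (1.55 ± 0.28, edgeR adjusted p = 1.65e-05). In single conditions it passed in deficient cells on the control diet (1.5 ± 0.54, adjusted p = 0.0299) and on the high-fat diet (2.06 ± 0.58, adjusted p = 0.00691). In wild type the adjusted p was 0.0515 on the control diet (1.29 ± 0.53) and 0.0675 on the high-fat diet (1.32 ± 0.57), though the 4 stem cell libraries lay above the 4 progenitor libraries on both diets, as 17.6% and 15.1% of genes did.

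The control-diet call in deficient cells was lost without 1 of 4 libraries (stem cell libraries c and d and progenitor libraries a and c of that group), with adjusted p of up to 0.142. It was also lost on log2(TPM + 1) (0.72, limma adjusted p = 0.112). The high-fat call was lost without deficient high-fat stem cell library d (adjusted p = 0.0551). In the other direction, the wild-type comparison on the high-fat diet passed without deficient control stem cell library a (adjusted p = 0.0298). Without scaling beyond library totals both wild-type comparisons passed (edgeR adjusted p = 0.0238 on the control and 0.0315 on the high-fat diet). The one on the control diet also passed with the 4 rounds of columns in the table, each holding all 8 groups, as a factor (adjusted p = 0.0448; a fit added after the data were seen) or with the Xist level as covariate (adjusted p = 0.0354), and the one on the high-fat diet on log2(TPM + 1) (limma adjusted p = 0.0311). The wild-type comparison on the control diet passed without 1 of 6 libraries, with adjusted p down to 0.0213: deficient high-fat stem cell libraries b and d, deficient control stem cell libraries a and c, deficient control progenitor library a and wild-type control stem cell library c.

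Anxa2 (ENSMUSG00000032231; chromosome 9, 69453620 to 69491795, plus strand) encodes annexin A2, a calcium-dependent protein of the membrane and its cortex. Wild-type stem cells held 71.3, 91.3, 69.3 and 95.1 CPM on the control diet and 88.1, 67.0, 121 and 56.5 CPM on the high-fat diet. Wild-type progenitors held 344, 398, 545 and 515 CPM on the control diet and 422, 391, 563 and 414 CPM on the high-fat diet. Deficient stem cells held 62.9 to 85.6 CPM and deficient progenitors 213 to 420 CPM. Each of the 16 progenitor libraries thus lay above each of the 16 stem cell libraries, as 6.95% of tested genes did. Anxa2 was 4.92-fold lower in stem cells (-2.30 ± 0.10, edgeR adjusted p = 2.01e-17), with -2.13 to -2.46 in single conditions, all past the threshold. The gene overlaps Mir3109 and, on the opposite strand, Gm16144. Since the sources used here do not say whether the counting used strand, reads from the antisense gene cannot be told apart.

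Ly6a (ENSMUSG00000075602; chromosome 15, 74994877 to 74998031, minus strand) was low. Stem cell libraries had 0 to 17 counts (median 4.5) and progenitor libraries 3 to 28 (median 10). In wild-type progenitors on the control diet the counts were 8, 28, 16 and 15, the highest group, and the stem cells of the same condition had 1, 17, 6 and 9, so the groups overlapped. Ly6a was 2.58-fold lower in stem cells over the 4 conditions (-1.37 ± 0.34, edgeR adjusted p = 0.000907). In wild type on the high-fat diet the progenitor libraries all lay above the stem cell libraries, as for 17.9% of genes. No single condition passed, with values from -0.83 ± 0.74 to -1.66 ± 0.70 and adjusted p from 0.0617 to 0.431. With the rounds of columns as a factor, 3 of the 4 passed: wild type on the control diet (-1.44, edgeR adjusted p = 0.0466), wild type on high fat (-1.67, adjusted p = 0.041), and deficient cells on the control diet (-1.68, adjusted p = 0.0431). These 3 also passed with the Xist level as covariate (adjusted p = 0.048, 0.0471 and 0.0454), and the last one in DESeq2 (adjusted p = 0.0484). In deficient cells on the control diet the value ranged from -2.96 without stem cell library b to -0.99 without progenitor library b. Leaving out 1 library brought the call in 3 of the 4 conditions, with adjusted p down to 0.00799 (deficient control diet, without stem cell library b, progenitor library c or wild-type control stem cell library a). It also did so for wild type on the control diet without its stem cell library b or progenitor library a, and for wild type on the high-fat diet without deficient control stem cell library b.

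Of the 50-base windows in Ly6a's exons, 19.0% of 1297 also occur in other genes of the family, mostly Ly6c1, so its values are uncertain. Ly6c1 and Ly6i were listed at 0 TPM in each library. Ly6a is also expressed by white blood and endothelial cells, and the summed level of 14 white blood cell markers was 12.1 to 36.9 CPM in progenitors and 6.59 to 15.9 CPM in stem cells. Of these markers, 2 could be tested, Itgam (-0.94 ± 0.10) and Lyz2 (-2.44 ± 0.50), and both were lower in stem cells. Ptprc lay the other way near the floor, with at most 0.614 CPM in stem cells and 0.174 CPM in progenitors. The sum of 13 stroma and endothelium markers was 0.703 to 4.36 CPM in progenitors and 1.06 to 3.38 CPM in stem cells. In each group 8 to 10 of these 13 were at 0 in all libraries, as were 2 to 6 of the 14 white blood cell markers, with Ptprc and Pecam1 as given above. Their part in the Ly6a difference was not tested.

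Ly6e (ENSMUSG00000022587; chromosome 15, 74955051 to 74959905, plus strand) encodes another membrane-anchored Ly6 protein, which is induced by interferon in many cells. On the CPM scale it was 1.23-fold lower in stem cells (-0.30 ± 0.07, edgeR adjusted p = 0.000497), with 270 to 674 CPM against 447 to 748 CPM. This call depended on the scaling. It was lost on the deposited log2(TPM + 1) values (-0.01, limma adjusted p = 0.862) and without scaling beyond library totals (-0.13, edgeR adjusted p = 0.0853). These settings move the median of all genes from 0.02 to 0.27 and 0.19. Within conditions, only wild-type cells on the control diet passed (-0.57 ± 0.14, edgeR adjusted p = 0.00178), with 4 progenitor libraries above the 4 stem cell libraries, as 20.5% of genes were. That call too was lost on log2(TPM + 1) (-0.26, limma adjusted p = 0.0984). In deficient cells on the control diet the value was -0.33 ± 0.14 (edgeR adjusted p = 0.066). It passed with the rounds of columns (adjusted p = 0.0434) or the Xist level (adjusted p = 0.0413) in the model, in DESeq2 (adjusted p = 0.0464), and without 1 of 4 libraries (deficient high-fat stem cell library a, deficient control stem cell library b and progenitor library c, and wild-type control stem cell library b; adjusted p down to 0.0299).

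Anxa1 (ENSMUSG00000024659; chromosome 19, 20373428 to 20390944, minus strand) encodes annexin A1, which resolves inflammation through formyl peptide receptors. It had 47 counts in all 32 libraries together, 25 in stem cells and 22 in progenitors, with no more than 5 in any library and 0 in 8. A difference between the populations was not detectable at this depth (without the filter 0.26 ± 0.47, edgeR adjusted p = 1). Its gene overlaps the lincRNA 1500015L24Rik on the other strand. In bulk libraries such as these, fewer cells that express a gene and less of its RNA per cell cannot be told apart, which holds for each of the 6 genes.

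**Figure D2:**
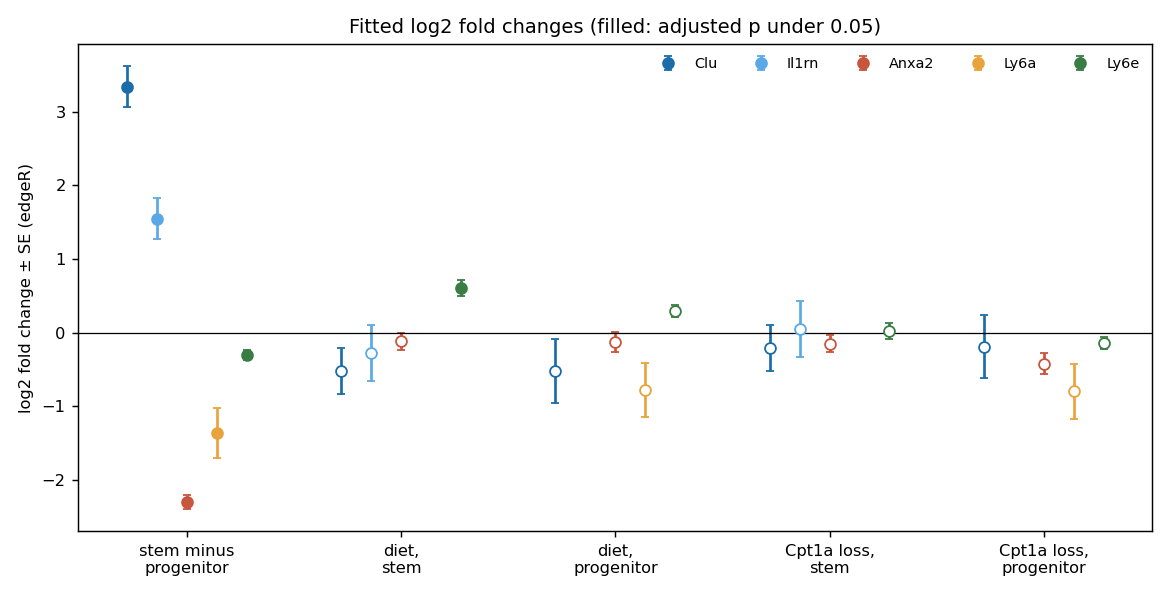
edgeR log2 fold change with its SE for the 5 genes tested, in 5 comparisons (x axis); filled points have an adjusted p under 0.05, and a gene that did not pass the count filter of a comparison has no point. All 5 stem cell against progenitor points are filled, and of the others only Ly6e under the high-fat diet in stem cells (0.61 ± 0.11).

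The diet comparison asks what the high-fat diet changed within each population and genotype. Ly6e was the only one of the 6 genes to pass for diet in the main fits, and it passed in stem cells only. In wild-type stem cells it held 360, 450, 328 and 270 CPM on the control diet and 652, 512, 674 and 616 CPM on the high-fat diet. The high-fat libraries all lay above the control libraries, as 3.43% of the genes did. The rise was 1.74-fold (0.80 ± 0.15, edgeR adjusted p = 0.0409), 1 of 4 tested genes against 0.25% of 12409 genes called in either direction.

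This single-genotype call lay near the threshold. It was lost when only these 8 libraries were fitted (0.80, edgeR adjusted p = 0.0793), and without 1 of 10 of the 16 stem cell libraries (adjusted p up to 0.13). These were wild-type high-fat libraries a, c and d, wild-type control libraries a, c and d, deficient high-fat libraries b and c, and deficient control libraries a and d. The change itself stayed between 0.69 and 0.93 in these fits. Within the pair of libraries per group with more Xist than Ddx3y it was 0.52, and within the other pair 1.11.

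In deficient stem cells Ly6e held 409, 488, 322 and 426 CPM on the control diet and 661, 487, 550 and 473 CPM on the high-fat diet. These groups overlapped by 1 control library, and the change of 0.41 ± 0.15 did not pass (edgeR adjusted p = 0.809). The diet effects of the genotypes were not shown to differ (interaction -0.39 ± 0.21, adjusted p = 0.999). No gene passed for this interaction (0% of 12409; 3.58% at an unadjusted p under 0.05, none of the 6). Over both genotypes Ly6e rose 1.52-fold in stem cells (0.61 ± 0.11, edgeR adjusted p = 0.00738, 1 of 4 tested genes against 0.959% of all genes called). That call was kept in each of the 16 fits that left out 1 library (adjusted p 0.0035 to 0.0223).

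In progenitors Ly6e showed smaller values in the same direction. Wild-type progenitors held 511, 635, 485 and 452 CPM on the control diet and 714, 748, 703 and 651 CPM on the high-fat diet, without overlap, as for 2.52% of genes. The change of 0.43 ± 0.11 did not pass (edgeR adjusted p = 0.276, with 0.0883% of genes called). Deficient progenitors held 467, 624, 447 and 529 CPM and then 570, 576, 655 and 515 CPM, which overlap (0.16 ± 0.11, adjusted p = 0.675, with 0.313% called). Over both genotypes the value was 0.29 ± 0.08 (edgeR adjusted p = 0.11, against 0.891% of 12460 genes called). It passed in DESeq2 (adjusted p = 0.0266), in edgeR without the count filter (adjusted p = 0.0472) or with the rounds of columns as a factor (adjusted p = 0.0397), and in edgeR without control library b of the wild-type progenitors (adjusted p = 0.032) or of the deficient ones (adjusted p = 0.0321). The diet effect was not shown to differ between stem cells and progenitors (0.30 ± 0.14, adjusted p = 0.866).

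By mean TPM the 8 groups ran, from high to low, from wild-type high-fat stem cells (958 ± 94.5 TPM) over wild-type high-fat progenitors (882 ± 45.9), deficient high-fat stem cells (839 ± 81.3), deficient high-fat progenitors (748 ± 68.3), wild-type control progenitors (678 ± 98.9), deficient control progenitors (674 ± 85.9) and deficient control stem cells (642 ± 99.9) to wild-type control stem cells (573 ± 131; SD, n = 4 each). Each pair of neighbours in this order overlapped. The 4 high-fat groups stood above the 4 control groups by mean, and wild-type stem cells held both ends of this TPM order. The top of the order depended on the scale. By mean CPM wild-type high-fat progenitors were highest, at 704 CPM against 614 CPM in wild-type high-fat stem cells. Wild-type control stem cells were lowest on that scale too, at 352 CPM.

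Markers of other cell types moved with the diet in stem cells too. The summed level of 12 goblet cell markers was 376 to 661 CPM in wild-type control stem cells and 957 to 1110 CPM on the high-fat diet, with no marker at 0 throughout a group. In deficient stem cells it was 419 to 772 and 772 to 1120 CPM. A fit added after the data were seen took the mean level of secretory markers (goblet, Paneth, enteroendocrine) as covariate. In it the Ly6e change was 1.12 in wild type (edgeR adjusted p = 0.0278) and 0.91 over both genotypes (adjusted p = 0.0253). The goblet part of this covariate did not overlap between the diets in wild type. This fit thus cannot separate diet from secretory content, and no conclusion is drawn from it. Enterocyte markers had a median log2 fold change of 1.28 in wild-type stem cells, with 2 of 14 higher, against 0.21% of all genes. Their summed level overlapped, at 1580 to 2110 CPM on the control diet and 1780 to 2580 CPM on the high-fat diet. The part of enterocyte markers in the Ly6e difference was not tested.

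None of the other genes passed for diet in either population, in any genotype. Clu was lower by mean on the high-fat diet in stem cells (-0.52 ± 0.31, edgeR adjusted p = 0.569), but the libraries given above overlapped. Its values were -0.47 ± 0.44 in wild type and -0.58 ± 0.45 in deficient stem cells. Anxa2 in deficient stem cells was 80.6, 81.1, 85.6 and 81.8 CPM on the control diet and 64.4, 62.9, 74.8 and 69.6 CPM on the high-fat diet. These 8 libraries did not overlap, as for 1.74% of genes in this direction, yet the change was only -0.27 ± 0.18 (edgeR adjusted p = 0.999, with 0.0645% of genes called). Ly6a in progenitors was 1.72-fold lower by mean on the high-fat diet (-0.78 ± 0.37, adjusted p = 0.45), with all groups overlapping. Il1rn did not pass the count filter in progenitors, nor Ly6a in stem cells. In wild-type progenitors Anxa1 had 2, 2, 3 and 4 counts on the control diet and 2, 0, 0 and 0 on the high-fat diet, too few for a fold.

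Cpt1a admits long-chain fatty acids to mitochondria, and its loss asks whether that step bears on these genes. None of the 6 passed for Cpt1a loss in stem cells over both diets (0.83% of 12409 genes called; 0 of 4 tested at an unadjusted p under 0.05, where 7.01% of genes are, and 0 in DESeq2). Ly6e changed by 0.02 ± 0.11 and Clu by -0.21 ± 0.31. On the high-fat diet Clu differed by -0.99 in log2 CPM within the libraries with more Xist than Ddx3y, and by 0.88 within the others. On the control diet these values were -0.62 and 0.07. Each came from 2 libraries per group, and whether the sets differ was not tested. In progenitors none passed either by edgeR (1.21% of 12460 called), with 2 of 4 tested genes at an unadjusted p under 0.05, where 11.2% of genes are, and 1 called in DESeq2. That one was Anxa2, which was 1.34-fold lower by mean in deficient progenitors (-0.42 ± 0.14, edgeR adjusted p = 0.189, DESeq2 adjusted p = 0.0477).

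On the high-fat diet Anxa2 stood at 282, 213, 372 and 361 CPM in deficient progenitors, below the 391 to 563 CPM of the wild type in each library, as for 3.65% of genes (-0.54 ± 0.19, edgeR adjusted p = 0.299, with 0.706% of genes called). On the control diet the deficient libraries held 420, 403, 280 and 337 CPM and overlapped the wild type. There the log2(CPM + 0.5) of Anxa2 differed by 0.15 within the libraries with more Xist than Ddx3y, and by -0.78 within the others. On the high-fat diet these values were -0.73 and -0.4, each from 2 libraries per group. Over both diets Ly6a was 1.74-fold lower by mean in deficient progenitors (-0.80 ± 0.37, edgeR adjusted p = 0.441), and its libraries overlapped. Its control-diet difference in log2(CPM + 0.5) was 0.18 within the libraries with more Xist than Ddx3y, and -1.85 within the others. On the high-fat diet it was -0.63 within each set. No difference between diets in the genotype effect passed in progenitors (0% of 12460 genes; 4.5% at an unadjusted p under 0.05, none of the 6). No member and no other gene passed edgeR's test that the diet effect or the Cpt1a effect differs between the populations (0% of 13088); at an unadjusted p under 0.05 1 of 5 did for diet, Ly6e, and 0 of 5 for Cpt1a loss, where 5.24% and 3% of genes did.

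Of 12 annexin genes 8 could be tested, and 6 were lower in stem cells and 0 higher (list median -1.91), against 31% and 32.5% of all genes (median 0.02). This background holds for each list set between the populations below. Beside Anxa2, Anxa13, an annexin of the gut epithelium, was lower by -2.28 ± 0.09 (edgeR adjusted p = 1.36e-18), Anxa5, a binder of phosphatidylserine, by -2.02 ± 0.11, and Anxa6 by -1.81 ± 0.17. Anxa4 was the most abundant annexin per length, with 1370 ± 125 TPM in stem cells and 1180 ± 108 TPM in progenitors (SD, n = 16), and did not pass (-0.07 ± 0.04, adjusted p = 0.145). Without scaling beyond library totals the count was also 6 lower and 0 higher, and on log2(TPM + 1) with limma 5 lower and 1 higher.

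Among the partners of annexins, S100a10, which binds Anxa2 in a heterotetramer, was lower in stem cells by far less than Anxa2 (-0.58 ± 0.07). S100a6 was at 47.9 ± 14.5 TPM in progenitors and at 4.48 ± 3.27 TPM in stem cells (-3.62 ± 0.20). Plat, the plasminogen activator whose action Anxa2 promotes at the cell surface, was higher in stem cells (2.60 ± 0.23). Fpr1 and Fpr2, which encode the receptors of Anxa1, were listed at 0 TPM in each library. The 5 tested partners split into 1 higher and 4 lower, or 1 and 3 on log2(TPM + 1).

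**Figure D3:**
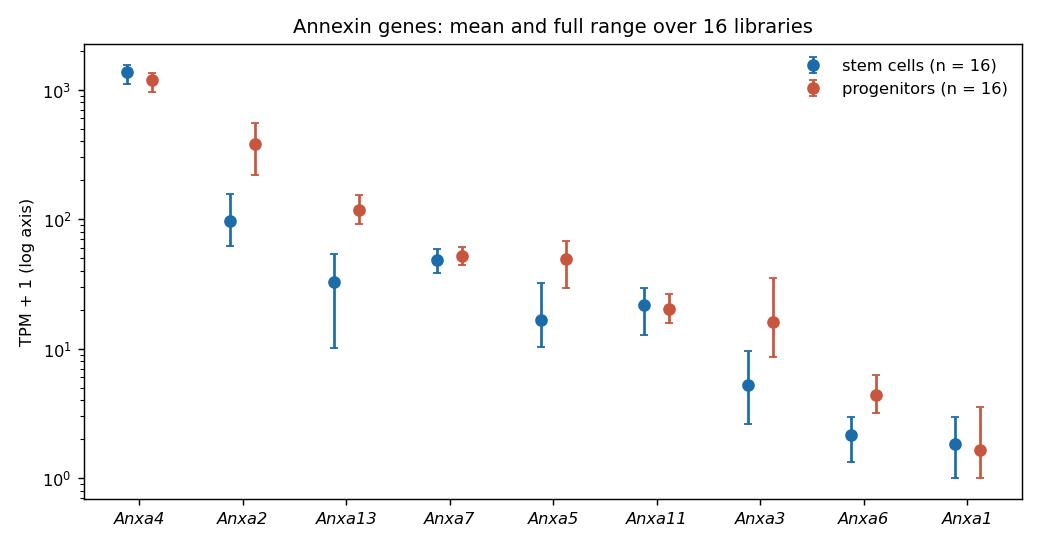
Mean TPM plus 1 (log axis) of the 8 tested annexin genes and Anxa1 in 16 stem cell and 16 progenitor libraries; lines span the lowest to the highest library. The ranges of Anxa2 and Anxa13 are apart between the populations, with 61.6 to 155 against 217 to 552 TPM for Anxa2, while those of Anxa4, Anxa7 and Anxa11 overlap.

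Anxa13 rose on the high-fat diet in stem cells over both genotypes (0.85 ± 0.17, edgeR adjusted p = 0.0151), and with Cpt1a loss (0.94 ± 0.17, adjusted p = 0.00594). Both calls held in each of 16 fits without 1 library (adjusted p up to 0.0434 and 0.0209). It was the 1 annexin of 8 to pass in each of these comparisons, where 0.621% and 0.637% of all genes were called higher, while Anxa2 had -0.12 ± 0.12 and -0.15 ± 0.12. The difference between the 2 genes was not tested.

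In the Ly6 family 7 of 28 listed genes could be tested, and 6 were lower in stem cells and 0 higher, against 31% and 32.5% of all genes (5 and 0 under the other scalings, without Ly6e). Lypd8, a secreted protein that keeps bacteria from the colonic epithelium, was the most abundant of them, above Ly6e, with 929 ± 173 TPM in stem cells and 2110 ± 385 TPM in progenitors (-1.46 ± 0.09, edgeR adjusted p = 3.98e-14). Plaur, the receptor of urokinase, was lower as well (-1.70 ± 0.29). For diet in stem cells, Ly6e was the only one of 3 tested family genes to pass, with -0.04 for Lypd8 and -0.09 ± 0.23 for Cd59a.

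For the interleukin-1 family 9 of 23 listed genes could be tested, with 2 higher and 4 lower in stem cells, 6 of 9 called against 63.5% of all genes. Il1rap, the accessory chain of the receptor, was the other higher gene (0.31 ± 0.08), and Il18, a cytokine of the epithelium, was the most reduced (-2.27 ± 0.21, edgeR adjusted p = 3.08e-10). The genes Il1rn would act on were near 0. Il1b was listed at 0 TPM in each library, Il1a reached at most 0.33 TPM, and the receptor gene Il1r1 at most 0.93 TPM. The split changed to 3 and 4 without scaling and to 4 and 2 on log2(TPM + 1). Among genes tied to clusterin, 6 of 10 were higher in stem cells, against 32.5% of all genes, including Clu itself and Apoe (1.41 ± 0.15), a lipid carrier, and 4 were lower, against 31%, including the receptor gene Vldlr (-1.84 ± 0.18) and the chaperone gene Hspa5 (-1.04 ± 0.08).

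A wider list held 37 fetal-like genes. Of 26 tested, 3 were higher and 19 lower in stem cells (median -0.75), against 32.5% and 31% of all genes. Lgals3, a galectin (-2.89 ± 0.16), Krt8, a keratin (-0.99 ± 0.05), and the S100a6 and Anxa5 given above had the smallest adjusted p. Without scaling the split was 6 higher and 16 lower, and on log2(TPM + 1) 6 and 15. Sprr1a, a small proline-rich protein gene, was listed at 0 TPM in each library. The list overlaps the annexins and their partners. Neither diet nor Cpt1a loss gave a call among the 22 tested in stem cells, with 7 and 5 above 0. Of all genes only 0.959% and 0.83% were called there, so a list of this size could hold none without differing from the rest. In progenitors 1 of 26 passed for Cpt1a loss, against 0.851% of all genes called higher. It was the laminin gene Lamb3 (1.08 ± 0.16, edgeR adjusted p = 0.00084).

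The list of YAP and TEAD genes also holds their inhibitors in the Hippo pathway, such as Lats1 and Nf2. Of 18 tested, 9 were higher and 3 lower in stem cells (median 0.16), against 32.5% and 31% of all genes, with 11 and 1 without scaling and 12 and 0 on log2(TPM + 1). Wwtr1, which encodes TAZ, was higher (1.31 ± 0.09), as were the cofactor gene Vgll4 (0.48 ± 0.06) and the target Ccn1 (0.76 ± 0.12), while the target Ankrd1 was listed at 0 TPM. In stem cells Wwtr1 fell on the high-fat diet over both genotypes (-0.56 ± 0.10, edgeR adjusted p = 0.00772), the 1 of 18 genes of the list to pass, against 0.338% of all genes called lower. It was kept in each of 16 fits without 1 library and lost on log2(TPM + 1) (-0.50, limma adjusted p = 0.0531).

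Interferon-response genes were set beside Ly6e for the high-fat diet. In stem cells over both genotypes, 1 of 32 tested was lower and 0 higher, 4 had a value above 0, and the median was -0.25 against 0.01 for all genes. Oasl2, a 2'-5' oligoadenylate synthetase-like gene, was the one that fell (-0.72 ± 0.16, edgeR adjusted p = 0.0291). Its call was lost without 1 of 9 libraries: the wild-type control libraries a, b and d, wild-type high-fat library c, deficient control libraries a and b, and deficient high-fat libraries b, c and d (adjusted p up to 0.0662). The summed level of the 45 genes was 1220 to 1720 CPM in wild-type control stem cells and 1040 to 1460 CPM on the high-fat diet. These ranges overlapped. In progenitors none of 37 passed for diet, 8 had a value above 0, and the median was -0.27. The part of interferon in the Ly6e difference was not tested.

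**Figure D4:**
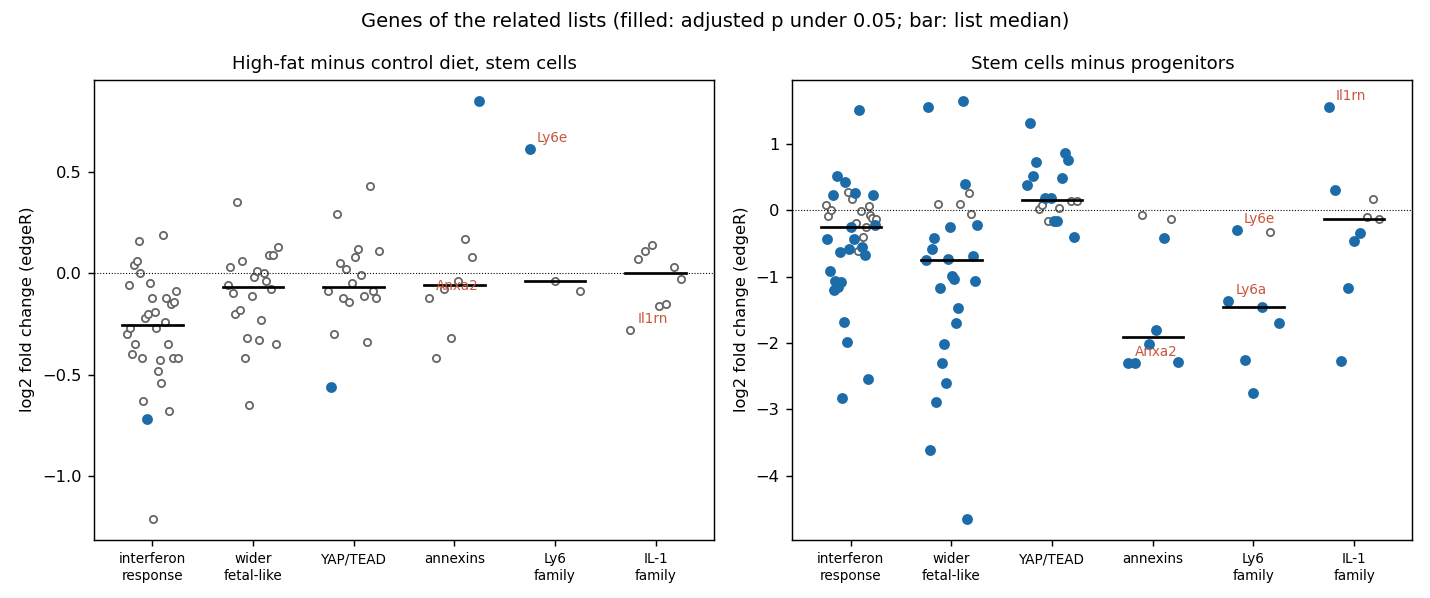
edgeR log2 fold change of each tested gene (point) in 6 lists for the high-fat diet in stem cells over both genotypes (left) and for stem cells minus progenitors over 4 conditions (right); filled points have an adjusted p under 0.05, bars are list medians, and members are named where the list holds them. On the left Ly6e (0.61) stands above a list of interferon-response genes with a median of -0.25; on the right annexins (median -1.91) and Il1rn (1.55) lie on opposite sides of 0.

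How the 6 genes vary together was described within each population over 16 libraries, as Pearson's r of log2(CPM + 0.5) after subtracting group means, with p-values from 100000 permutations of libraries within groups, adjusted over 15 pairs. In stem cells 1 pair passed, Anxa2 with Il1rn (r = 0.38, permutation p = 0.00148, adjusted 0.0222; Spearman's rho = 0.64, adjusted permutation p = 0.0039). Without the 2 libraries farthest from the median of Anxa2 r was 0.42, and within the libraries with more and less Xist than Ddx3y it was 0.15 and 0.49. Libraries far from the median of Il1rn were not left out. On log2(TPM + 1) the pair did not pass (r = 0.45, adjusted permutation p = 0.206). In progenitors no pair passed, the highest being Ly6a with Anxa2 (r = 0.65, permutation p = 0.0112, adjusted 0.169). Clu with Ly6a had r = 0.13 in stem cells and -0.21 in progenitors.

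The genes whose log2 CPM followed each member most closely over the 16 libraries of a population were listed among genes of mean log2 CPM 3 or more, as a description, since all points share depth and scaling. The second r of each pair is that after subtracting group means. In stem cells Clu was closest to Mier1 (r = 0.876, then 0.90), P2ry6 (0.87, then 0.856) and Naip5 (0.85, then 0.835) among 9740 genes. Ly6e was closest to Tmed5 (0.891, then 0.839), Wdr74 (0.862, then 0.608) and Ddx56 (0.859, then 0.705), so the latter pair followed it less closely within groups. Anxa2 was closest to Zbtb7a (0.862, then 0.84), and Il1rn to Helb (0.77, then 0.752). In progenitors Anxa2 was closest to Slc40a1 (0.947, then 0.917), which encodes ferroportin, Il18 (0.945, then 0.928) and Mvp (0.944, then 0.912) among 9535 genes. Ly6a was closest to Ndel1 (0.929, then 0.892), H2-D1 (0.879, then 0.815), a class I MHC gene, and Apol10a (0.85, then 0.785). Clu was closest to Tmem171 (0.781, then 0.78), and Ly6e to Tnks1bp1 (0.80, then 0.549).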

How the data were processed

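Per the submitters' processing notes, the tools were RSEM 1.3.0, STAR 2.5.3a and SAMtools 1.3, with the build mm10; annotation and strand setting are not given in the sources used here. The deposited expected counts are estimated counts per gene, in whole numbers. The deposited log2 values are log2(TPM + 1). Genes were tested with edgeR 4.0.16 (TMM, filterByExpr at a minimum count of 10, robust quasi-likelihood, Benjamini-Hochberg at 0.05) over all genes: 12409 in 16 stem cell libraries, 12460 in 16 progenitor libraries and 13088 in all 32. SE was taken as the size of the log2 fold change divided by √F. CPM is TMM-scaled over the 32 libraries. Alternatives used DESeq2 1.42.0 and limma 3.58.1. Scripts were tested on simulated data. Gene symbols were looked up by gene ID, and positions from GENCODE M21 (GRCm38). Genes with no symbol held 0.0677% of counts. The 6 genes and all lists were chosen with earlier results of these data known. Named genes were the 6 members, from each list up to 4 with the smallest adjusted p (or 2 where none passed), the 3 most alike each member, and sort genes; genes given only as near 0, Il1rap, and Anxa4 for its level, were named after their values were seen.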

Additional observations from a re-analysis of the deposited data

Results flagged for a closer look

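Of the 48 sets of 4 libraries (6 genes in 8 groups), the 42 with a library above 3 counts were checked. The others, all of Anxa1, were left out. In each checked set the highest and lowest library was compared with the rest. Of these libraries 3 stood apart by more than Dixon's 95% critical gap, which chance gives in about 1 of 20 sets. Clu in deficient progenitors on the control diet was 9.06 CPM in library c, against 1.77 to 2.40 CPM in the other three. The stem cell library c of the same condition was the highest for Clu as well, at 61.5 CPM. Crypt base stem cell markers summed to 8310 CPM in progenitor library c, against 3450 to 5630 CPM in the rest of its group. Their part in its Clu value was not tested. Il1rn in wild-type progenitors on the control diet was lowest in library b, at 0.728 CPM, from 4 counts. Among wild-type high-fat stem cells, Il1rn was highest in library c, at 2.8 CPM, from 13 counts, the same number as libraries a and b had.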

How the results depend on the processing

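No paired analysis was possible because the columns carry no replicate number; the 4 rounds of column order used below are not tied to replicate numbers by any label. Over 91 member results and 9 other settings, 695 values kept direction and call, 20 lost the call, 19 gained it, 36 changed sign with neither called, and 1 reversed: Ly6a, stem cells against progenitors over 4 conditions, 1.13 (adjusted p = 0.817) with the secretory marker level as covariate, where the goblet part of that level ran from 376 to 1120 CPM in stem cells and from 10300 to 29000 CPM in progenitors. With that covariate, chosen after seeing the data, the members called fell to 0 in all 5 comparisons of the populations. With the 4 rounds of columns as a factor, also chosen after seeing the data, and with the Xist level, 5 members passed on the control diet in wild type and 5 in deficient cells, and 5 in deficient cells with DESeq2. The main fit called 3 members in each of these comparisons, where 41.4% and 36.8% of all genes were called. This high background limits what the counts say about the members. Members called for diet were 0 in wild-type stem cells when only their libraries were fitted, and 1 in progenitors over both genotypes with the column rounds, DESeq2 or no count filter. For Cpt1a loss in progenitors DESeq2 gave 1. Leaving out 1 library gave 0 to 1 for diet in wild-type stem cells and in progenitors over both genotypes, and, for the populations, 3 to 4 in wild type on the control diet, 2 to 3 on the high-fat diet, and in deficient cells 2 to 5 on the control diet and 2 to 3 on the high-fat diet. Over all genes, the diet calls in wild-type stem cells were 26 higher and 5 lower, against 104 and 76 with DESeq2, 60 and 40 with column rounds, 40 and 17 with the Xist level, 41 and 15 without the filter, 15 and 1 with limma, and 2 and 0 from their libraries alone. In stem cells over both genotypes they were 77 and 42, against 137 and 113 with DESeq2, 108 and 72 with column rounds and 9 and 5 with the secretory covariate; in progenitors 80 and 31, against 153 and 87 with DESeq2 and 26 and 11 with that covariate. For Cpt1a loss DESeq2 gave 109 and 57 against 79 and 24 in stem cells, and 146 and 127 against 106 and 45 in progenitors. The covariate left 0 higher and 4 lower between the populations. Depth limits Anxa1, Ly6a and Il1rn most, at a floor of 3 counts per library. The causes were not tested.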
